A study of Mus musculus with 4 samples.

Results

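CTCF sites in coding exons were the autosomal peaks of the between-replicate CTCF list whose summit lay in a protein-coding segment of an exon and over 1 kb from any transcription start site (TSS) of the GENCODE M21 basic annotation on mm10. There were 1598 of them among 88071 autosomal peaks, or 1.81% (exact 95% interval 1.73 to 1.90%). The data were ChIP-seq of CTCF from a layer of hippocampus of adult male B6CASTF1/J mice, the F1 hybrids of C57BL/6J and CAST/EiJ, aged 2 months. Per the labels there were 2 biological replicates with 2 technical libraries each, every replicate being a pool of 7 tissue biosamples (pool D for replicate 1, pool C for replicate 2). The labels name no treated or mutant group and give both pools the same donor entry. The coding exon sites were therefore set against CTCF sites in introns, 3′ untranslated regions (UTRs) and intergenic sequence of the same list, all over 1 kb from a TSS. Each summit counts as 1 site, and a peak can hold several. At 109 coding exon sites and 1466 of 41022 intron sites another summit shared the same peak start and end. With overlapping peaks reduced to the strongest, 1513 coding exon sites of 84643 peaks remained (1.79%). Read depth was unknown because the files hold peaks and not reads, and hippocampal marker genes cannot be checked in CTCF peaks.

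CTCF is a zinc finger protein that binds a long, non-palindromic DNA motif and halts cohesin as it extrudes chromatin loops. The strand of the motif sets from which side a cohesin complex is stopped, and methylation of CpGs in the motif can lower binding. In a coding exon the same bases must also spell amino acids, so the motif can occur only where the codons allow it, on either strand and in any of the reading frames.

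The letters of the strongest exact match to the 12-base CTCF core motif in each combination of strand and codon position are shown because they let the motif be read inside a coding sequence. All are mm10 reference bases read in the sense of the gene, with the match in capitals and 21 bases on either side. Alleles of CAST/EiJ were not analysed here. "Sense" means that the motif runs along the coding strand, and the codon position is that of the first capital.
Eri1, sense, position 1, chr8:35469143-35469196, minus strand: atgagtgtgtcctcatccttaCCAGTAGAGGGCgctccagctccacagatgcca
Dst, sense, position 2, chr1:34218485-34218538, plus strand: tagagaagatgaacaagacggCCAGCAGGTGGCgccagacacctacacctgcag
Crh, sense, position 3, chr3:19694043-19694096, minus strand: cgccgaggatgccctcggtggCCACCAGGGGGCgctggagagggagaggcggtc
Pgls, antisense, position 1, chr8:71596096-71596149, plus strand: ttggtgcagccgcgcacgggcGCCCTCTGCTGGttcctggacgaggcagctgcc
Kif19a, antisense, position 2, chr11:114789207-114789260, plus strand: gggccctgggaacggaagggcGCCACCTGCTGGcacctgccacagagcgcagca
Hey1, antisense, position 3, chr3:8664671-8664724, minus strand: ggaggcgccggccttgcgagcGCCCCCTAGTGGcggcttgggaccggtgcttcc

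These sites carried a peak signal of 805 at Eri1, which encodes an exoribonuclease, and 805 at Dst, a linker of cytoskeletal filaments. The signal was 876 at Crh, the gene of corticotropin-releasing hormone, and 874 at Pgls, an enzyme of the pentose phosphate pathway. It was 884 at Kif19a, a kinesin of cilia, and 844 at Hey1, a transcriptional repressor downstream of Notch. The signal is a value from the authors' peak caller, deposited without a stated scale, and it serves here only to rank peaks within the list. In all 6 sites the match centre lay at most 5 bp from the summit.

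Other strong coding exon sites had a match with 1 mismatch away from the summit, or none. At Def6, a guanine nucleotide exchange factor of lymphocytes with a signal of 887, the match centre was 49 bp from the summit. At Spi1, the myeloid transcription factor PU.1, the signal was 885 and the match centre 37 bp from the summit. Vps13d, a lipid transfer protein, had a signal of 889 and no match even with 2 mismatches within 50 bp. The 101 bases around its summit are shown beside the 2 sites with an imperfect match, again in the sense of the gene.
Def6, sense, position 3, chr17:28226251-28226304, plus strand: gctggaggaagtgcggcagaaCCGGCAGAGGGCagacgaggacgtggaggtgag
Spi1, sense, position 3, chr2:91115235-91115288, plus strand: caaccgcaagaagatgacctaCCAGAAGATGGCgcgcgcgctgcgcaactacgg
Vps13d, no match, chr4:145156101-145156201, minus strand: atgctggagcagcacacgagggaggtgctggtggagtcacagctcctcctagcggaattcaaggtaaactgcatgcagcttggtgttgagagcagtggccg

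Coding exon sites were dense for the amount of sequence available. Coding bases over 1 kb from a TSS made up 1.19% of the known autosomal bases and held 1.81% of the summits, which is 55.9 sites per Mb. The density was 50.9 per Mb in 3′ UTRs, 41.9 per Mb in introns and 25 per Mb in intergenic sequence. Within 1 kb of a TSS it was 115 per Mb. Soft-masked (repeat) bases held 3.0% of the coding summits and 4.51% of the coding bases, against 37% of the intron summits and 29.3% of the intron bases. The 101 bp around a coding summit had a GC content of 58.5% ± 8.38 (SD, n = 1598 sites), against 48.1% ± 7.81 in introns (n = 41022). They held 4.33 CpGs on average, against 1.20 in introns.

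The peak signal of coding exon sites had a median of 183, with quartiles of 89.5 and 466 and a range of 13.1 to 928. The intron median was 150, the 3′ UTR median 210 and the intergenic median 188. The coding median was also above the intron median in each replicate's own signal, at 91.5 against 74.3 in replicate 1 and 98.3 against 79.4 in replicate 2. The difference between the medians was 17.2 in replicate 1 and 19 in replicate 2. Coding exon sites were spread over the whole range of the list. When all autosomal peaks were divided by signal into 10 equal bins, the fullest was bin 8 from below, with 12.3% of the coding exon sites. The strongest bin held 7.88%, or 126 sites.

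The replicate signals of coding exon sites followed each other closely. Across the 1598 sites the Pearson correlation of the log2 signals was 0.949, and it was 0.954 across the intron sites. These are descriptions over the peaks of 1 list, with the signal of each replicate's own input peak, and not over independent samples. The list keeps only peaks that were reproducible between these same 2 replicates, so part of this closeness was set by the selection. Of the 3492 coding peaks ranked before it, 1894 were left out. The log2 ratio of replicate 1 over replicate 2, less its median over all autosomal peaks, was within 0.5 of 0 at 94.4% of the coding exon sites. It passed 1 in size at 27 sites, of which 1 had a core motif match. The highest ratios were 4.31 at Fgf23, which encodes a phosphate-regulating hormone, with signals of 267 in replicate 1 and 14.4 in replicate 2, 3.97 at the lipid desaturase gene Scd2 and 3.96 at the nucleolar gene Nop2. The lowest ratio was -3.37 at Grik5, a kainate receptor subunit, with signals of 24.5 in replicate 1 and 269 in replicate 2. Zswim5 and the Polycomb gene Pcgf2 followed at -2.14 and -2.11. All 6 of these summits had another summit 201 to 209 bp away. At 4 of them one replicate's signal was several times the list's own signal, as at Fgf23, where the list gives 37. At Scd2 the replicate 1 signal of 356 was also the one given for the neighbouring summit 205 bp away. That neighbour had 383 in replicate 2 and a ratio of -0.0128. The cause of the large ratios was not tested. At 39 coding exon sites a replicate's signal was above the list's. Over the other 1559 sites the SD of the ratio was 0.238, against 2.02 over those 39. Of the 27 ratios past 1 in size, 6 were among the 1559. In introns the ratio passed 1 in size at 377 of 41022 sites, of which 13 had a core motif match. Of all coding exon sites 36.9% had such a match, and of all intron sites 54.1%.

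**Figure D1:**
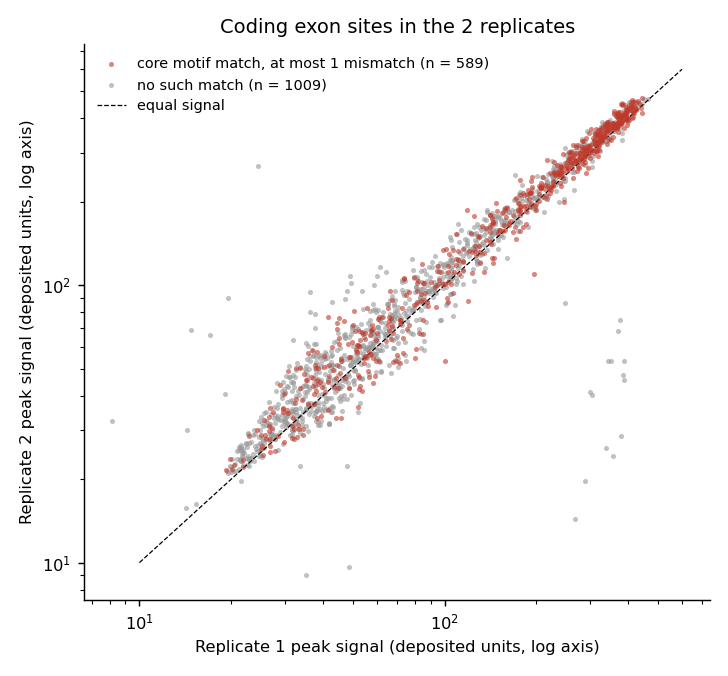
Peak signal of the 1598 coding exon sites in replicate 1 (x axis) and replicate 2 (y axis), both in deposited units on log axes, with 1 point per site and the dashed line at equal signal. Sites with a core motif match (red) are 61.9% of those in the strongest of 4 bins of list signal. Of the 27 sites whose centred log2 ratio passes 1 in size, 1 has a match. Only 6 of the 27 lie outside the 39 sites where a replicate's signal was above the list's.

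Fewer coding exon sites than intron, 3′ UTR or intergenic sites had a core motif match at the summit. With at most 1 mismatch, 589 of 1598 coding exon sites (36.9%, interval 34.5 to 39.3%) had a match centre within 50 bp of the summit. By Fisher's exact test this was lower than the 54.1% of 41022 intron sites (adjusted p = 6.64e-42), the 48.0% of 1500 3′ UTR sites (adjusted p = 3.74e-10) and the 55.7% of 30921 intergenic sites (adjusted p = 7.02e-49). The tests were two-sided, with Benjamini-Hochberg adjustment over the 3 comparisons. For scale, 1.37% of all coding bases over 1 kb from a TSS had a match centre as near. The tests take sites as independent, and the intervals here and below cover counting error only.

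The size of that difference changed when repeats were left out and when other numbers of mismatches were allowed. Over summits outside soft-masked sequence, a choice made after seeing the data, the share was 36.5% of coding exon sites and 42.9% of intron sites (adjusted p = 7.37e-07, Fisher's exact test), so the gap to introns was 6.47 percentage points, against 17.3 over all summits. For an exact match the shares were 8.57% of coding exon sites, against 9.50% of intron sites (adjusted p = 0.223), 13.2% of 3′ UTR sites and 12.5% of intergenic sites. With 2 mismatches allowed they were 71.7% in coding exons and 79.1% in introns. For an open form of the same motif, with its variable positions left free and no mismatch allowed, they were 17.3% in coding exons and 40.5% in introns. Summits in soft-masked sequence were kept for the exact, 2-mismatch and open forms.

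The share with a match was higher in stronger peaks of all 4 classes compared, and the coding share was below the intron share in each of 4 equal bins of signal over all autosomal peaks. In the weakest bin, up to a signal of 85.2, 19.6% of 367 coding exon sites had a match, against 41.1% of intron sites. In bin 2 the shares were 27.7% in coding exons and 50.3% in introns, and in bin 3 they were 36.5% in coding exons and 56.2% in introns. In the strongest bin, above 466, 61.9% of 399 coding exon sites had a match (interval 56.9 to 66.7%), against 72.3% of intron sites and 71.7% of 3′ UTR sites.

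**Figure D2:**
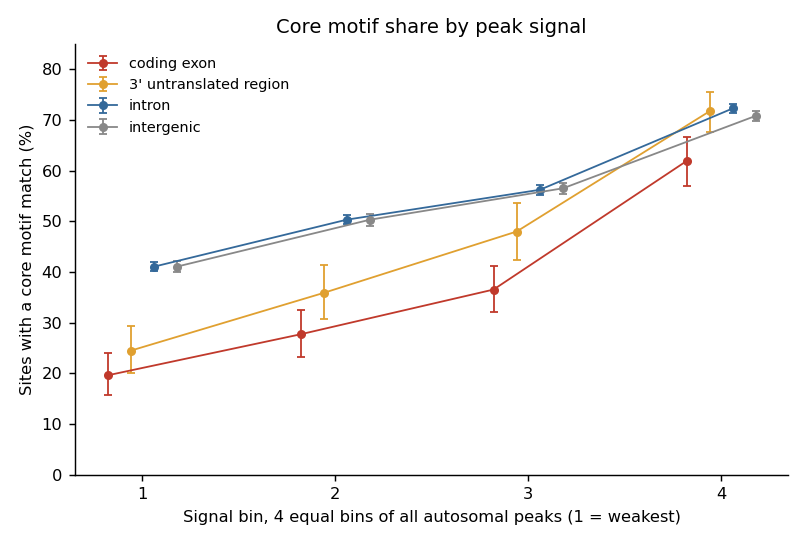
Share of sites with a core motif match (at most 1 mismatch, centre within 50 bp of the summit) by bin of peak signal (4 equal bins of all autosomal peaks), with exact 95% intervals. Coding exon sites (red) go from 19.6% in the weakest bin to 61.9% in the strongest and lie below introns in all 4.

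The signal of coding exon sites was lower at each step down in the quality of the best match. The 137 sites with an exact match had a median signal of 506 (quartiles 306 and 716), with 245 in replicate 1 and 266 in replicate 2. The 452 sites with 1 mismatch had a median of 311 (144 and 158 in the replicates). For the 556 sites whose best match had 2 mismatches it was 175 (83.4 and 94.7), and for the 453 sites with none of these it was 113 (56.8 and 60.6). The quartiles overlapped between neighbouring groups, and the highest signal among sites with none of these matches was the 889 at Vps13d. CpG content was highest in the sites with the poorest matches: there were 3.68 CpGs in the 101 bp around the summit with an exact match, 3.42 with 1 mismatch, 4.45 with 2 and 5.28 with none. Presence in both single-replicate lists was 93.4%, 84.3%, 77.5% and 68.9% over the same groups.

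A core motif match was less often occupied in a coding exon than in an intron. Over the reference autosomes, 4053 matches with at most 1 mismatch lay in coding sequence over 1 kb from a TSS, and 589 of them (14.5%, interval 13.5 to 15.7%) had a summit within 50 bp of the match centre. Over all classes together the share was 21.9%. In introns it was 25.2% of 91008 matches (p = 2.93e-59, two-sided Fisher's exact test), and in 3′ UTRs it was 25.8% of 2866. In intergenic sequence it was 18.9% of 93758 (interval 18.7 to 19.2%), which is nearer to the coding share only with repeats kept. The tests on occupied shares take matches as independent, which matches in repeats may not be. Coding sequence held more matches for its length, with 142 per Mb against 92.9 per Mb in introns. Exact matches were also commoner, at 8.49 per Mb in coding sequence and 5.40 per Mb in introns. Of the 243 exact coding matches 133 were occupied (54.7%, interval 48.2 to 61.1%), against 74.2% of 5289 in introns (p = 1.54e-10, Fisher's exact test), 79.1% of 249 in 3′ UTRs and 70.5% of 5478 in intergenic sequence.

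The difference in occupied share held outside repeats and could not be seen among matches that hold a CpG, both choices made after seeing the data. Among matches outside soft-masked sequence, 14.2% in coding exons and 21.8% in introns were occupied (p = 3.18e-31, Fisher's exact test). There the share was 21.7% of 47550 matches in intergenic sequence and 24.8% of 2261 in 3′ UTRs, with no test. Among matches without a CpG the shares were 14.4% in coding exons and 25.5% in introns. Among the matches with a CpG, 69 of 452 coding matches (15.3%, interval 12.1 to 18.9%) and 395 of 2575 intron matches (15.3%, interval 14 to 16.8%) were occupied (p = 1, Fisher's exact test). Only CpGs inside the 12 bases of the match were counted, and the core motif itself admits none, so each of these matches carries 1 mismatch. A CpG formed by the last C of the motif and the next base was not counted. Each exact match shown above has one there, so matches without a CpG here are not free of CpGs at their edge. A CpG was present in 11.7% of occupied and 11.1% of unoccupied coding matches, against 1.72% and 3.20% in introns. Matches with and without a CpG also differ in mismatches and repeats. Among intron matches with 1 mismatch outside soft-masked sequence, 16.8% were occupied with a CpG and 16.8% without. Among such coding matches 15.3% were occupied with a CpG and 11.2% without. No test was run on these shares.

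**Figure D3:**
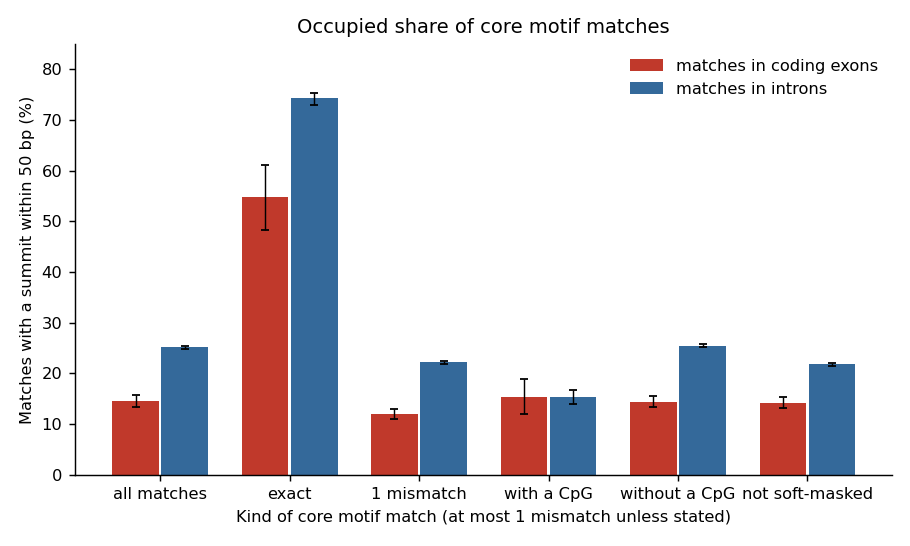
Share of core motif matches with a CTCF summit within 50 bp of the match centre, for matches in coding exons (red) and introns (blue), by kind of match, with exact 95% intervals. The coding bar is lower for every kind except matches with a CpG, where both stand at 15.3%.

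Where the mismatch fell is given for occupied and unoccupied coding matches as shares, with no test. Positions are counted from 1 at the 5′ end of the core motif. Among the 456 occupied coding matches with 1 mismatch, the mismatch was at position 3 in 24.1%, at position 12 in 17.5% and at position 5 in 11.6%. Among the 3354 unoccupied ones these shares were 8.62% at position 3, 13.7% at position 12 and 5.66% at position 5. Mismatches at positions 2 and 7 made up 0.439% and 0.658% of the occupied coding matches, against 5.52% and 8.86% of the unoccupied ones. Occupied intron matches had similarly low shares at positions 2 and 7 (0.269% and 1.19%), but 60.6% of them had their mismatch at position 5, as did 28.9% of the unoccupied intron matches. Matches in repeats were kept in these shares. Outside soft-masked sequence lay 434 of the 456 occupied coding matches, but only 7746 of the 18993 occupied intron matches. The mismatch position was not counted apart from repeats, so the part of repeats in this contrast was not tested.

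Occupied coding matches had nearly the same strands and reading frames as coding matches in general. Of the 4053 coding matches, 3808 could be placed in 1 coding segment and frame, and 551 of these (14.5%) were occupied. The motif ran in the sense of the gene in 236 of the 551 (42.8%, interval 38.7 to 47.1%), against 46.3% of all placed matches. The supply was uneven over the 6 combinations of strand and codon position. Antisense matches beginning at codon position 2 were 28.2% of all placed matches, sense matches at position 3 were 22.6%, and sense matches at position 2 were 6.33%. The occupied matches had nearly the same shares, at 27.8%, 20.0% and 6.35%. The occupied share ranged from 12.8% for sense matches at position 3 to 17.5% for antisense matches at position 3, with overlapping intervals. Among exact matches 56 of 90 sense matches (62.2%, interval 51.4 to 72.2%) and 70 of 138 antisense matches (50.7%, interval 42.1 to 59.3%) were occupied.

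**Figure D4:**
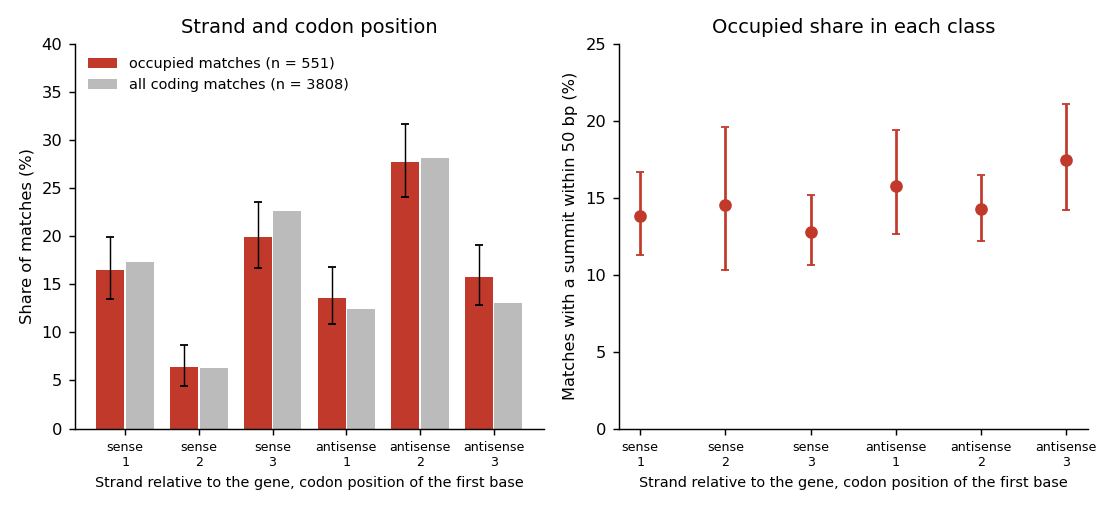
Left, share of the 551 occupied (red) and of all 3808 placed (grey) coding matches in each combination of strand relative to the gene and codon position of the first base. Right, occupied share in each combination. Bars on the red columns and points are exact 95% intervals. The grey columns range from 6.33% to 28.2%, while the occupied share stays between 12.8% and 17.5%.

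Internal coding segments held a smaller share of the sites than of the bases, and last, first and single segments a larger one. Of the 1573 sites in the longest coding transcript of their gene, 68.2% (interval 65.8 to 70.5%) were in internal coding segments, which held 75.5% of the eligible bases. Last segments held 20.4% of sites and 16.4% of bases, first segments 5.72% and 4.16%, and genes with a single coding segment 5.66% and 4.02%. In 4 equal stretches of the coding sequence from the start codon, the sites divided as 16.5%, 24.3%, 29.1% and 30.1%, against 19.6%, 25.8%, 27.2% and 27.4% of the bases. Fewer summits than bases lay near a splice junction in genes with several coding segments: of their 1484 summits 44.5% were under 50 bp from one (interval 41.9 to 47.0%), against 52.0% of the bases, and 19% were under 20 bp, against 22.6%. Coding segments of at least 1 kb held 16.9% of the sites and 15.5% of the bases. A core motif match was present in 39.2% of sites in internal segments (interval 36.3 to 42.2%) and in 22.2% of sites in first segments (interval 14.1 to 32.2%), where the CpG count averaged 6.66, against 3.52 in internal segments.

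Coding exon sites were denser in coding segments of higher GC and CpG content. Segments under 45% GC held 71 sites, or 1.18 per 100 kb of eligible coding bases (exact Poisson interval 0.920 to 1.49). Segments of 60% GC or more held 575 sites, or 16.1 per 100 kb (interval 14.8 to 17.4). By CpG content the density was 2.45 per 100 kb (interval 2.02 to 2.93) under 1 CpG per 100 bp and 41.6 per 100 kb (interval 36 to 47.8) at 8 or more. Sites without a core motif match made up most of this difference, from 1.36 per 100 kb in the CpG-poorest segments up to 33.5 per 100 kb in the richest. Sites with a match were denser over the same segments as well, from 1.09 up to 8.16 per 100 kb. The share with a match was 44.4% in the CpG-poorest segments and 19.6% in the richest. The median signal moved little, at 172 in the poorest segments and 197 in the richest.

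**Figure D5:**
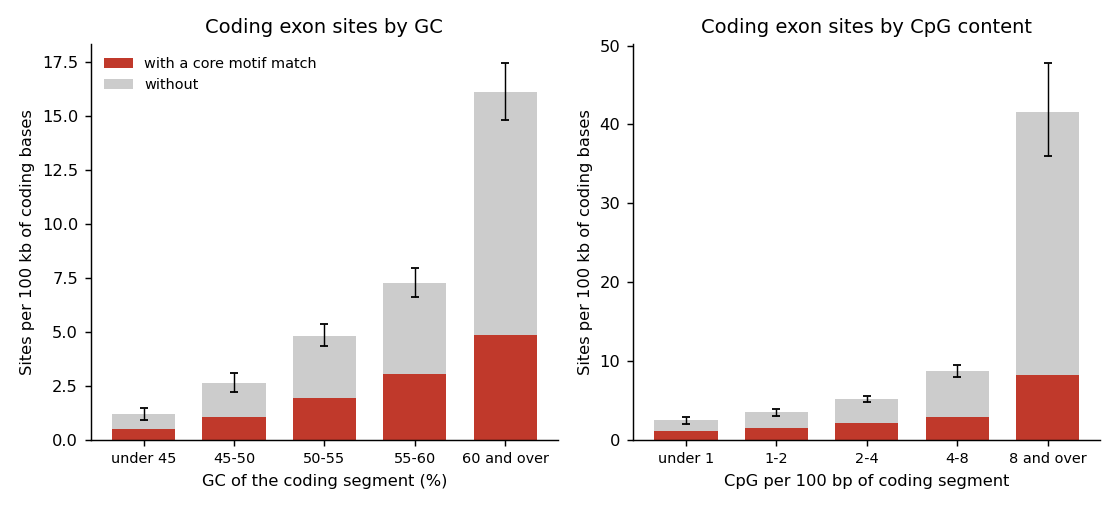
Coding exon sites per 100 kb of coding bases over 1 kb from a TSS, by GC (left) and by CpG content (right) of the coding segment, divided into sites with (red) and without (grey) a core motif match. Error bars are exact 95% Poisson intervals of the total, which goes from 1.18 to 16.1 over GC and from 2.45 to 41.6 over CpG content.

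The sites fell in the coding segments of 1440 of 18685 protein-coding genes with coding bases over 1 kb from a TSS, or 7.71%. Of these genes, 1284 had 1 site, 145 had 2, 10 had 3 and 1 had 5. Genes with a site offered more eligible coding sequence, with a median of 1848 bp against 1065 bp in genes without one. The median distance of a site from the nearest TSS was 7908.5 bp, with quartiles of 3319 and 18382.5 bp. The density per chromosome ranged from 3.84 per 100 kb of coding bases on chromosome 2 to 7.51 on chromosome 19. At 106 sites (6.63%) the summit also lay inside the body of another gene.

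Syne1, which encodes a giant linker between the nucleus and the cytoskeleton, had the most sites. Its 5 summits had list signals of 105, 70.0, 609, 291 and 191, none with a match of at most 1 mismatch, in 26071 bp of eligible coding sequence. At the strongest, in a segment of 2161 bp, the signal was 300 in replicate 1 and 311 in replicate 2. The other 4 genes named, each with 3 sites, came next by their summed signal. F12, a coagulation factor, had signals of 777, 101 and 706 in only 1676 bp, and the 2 strong sites each had an antisense match with 1 mismatch. Its summits at 777 and 101 were 206 bp apart in overlapping peaks. Cul9, a scaffold of a ubiquitin ligase, had 300, 122 and 788. Dst had 660 and 20.0 at 2 summits of the same peak, in a segment of 5292 bp, and 805 at the exact match shown above. Hmcn2, an extracellular matrix protein, had 664, 558 and 121. The last 2 were summits of the same peak in the 343 bp last segment, with the same replicate 1 signal of 248.

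The 10 strongest coding exon sites had list signals of 874 to 928. In order they lay in A830031A19Rik, Gm16253, Epg5, Vps13d, Def6, Spi1, Kif19a, Crh, Pgls and Tdrd5. The strongest, in A830031A19Rik (928) and Gm16253 (917), had no match with at most 1 mismatch, and neither did Vps13d. Epg5, an autophagy gene, had a signal of 911 and an exact sense match, while Tdrd5, a germline gene, had 874 and no match with at most 1 mismatch. In the single-replicate lists 10 of these 10 were present for replicate 1 and 8 for replicate 2 (it lacked Def6 and Kif19a). In the pooled-read list 1 of the 10 was present, Tdrd5. In signal bins 6 to 9 of 10 every coding exon site was in the pooled-read list, and in the strongest bin 95 of 126 were (75.4%), against 86.4% of the intron sites in that bin.

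Coding exon sites were counted in 19 lists of genes, with intervals not adjusted for the number of lists. Over all protein-coding genes there were 5.56 sites per 100 kb of eligible coding bases (interval 5.29 to 5.84). In 16 lists the interval of the density held this value, in 3 it lay below and in 0 above. The number of lists that lay below all genes was 2 at an IDR (irreproducible discovery rate) of 0.01 or less, 4 without replicate 2 and 3 without replicate 1, and 1 list lay above without replicate 1. C2H2 zinc finger genes had a site in 21 of 454 genes (4.63%) and 2.93 sites per 100 kb (interval 1.88 to 4.36). Chromatin regulator genes had one in 9 of 88, with 2.92 sites per 100 kb (interval 1.46 to 5.22). That interval was the same at an IDR of 0.01 or less and without replicate 1, where it held the density of all genes, at 5.10 and 5.08 per 100 kb. Olfactory and vomeronasal receptor genes had a site in 0 of 420, which allows a share of up to 0.874% (exact interval), in 389 kb, and without replicate 1 there was 1 site, or 0.257 per 100 kb. The coding segments of the olfactory list averaged 41.8% GC and 0.522 CpGs per 100 bp, those of the zinc finger list 48.7% and 2.33, those of the chromatin regulator list 51.7% and 2.62, and those of all genes 51.3% and 2.67. The part of this composition in the counts was not tested.

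The strongest zinc finger site was in Zfp219, with a list signal of 867 (414 in replicate 1 and 455 in replicate 2). Among chromatin regulators, Kmt2a, a histone methyltransferase, had 786, Smarcb1, a subunit of a nucleosome remodeller, had 679 at an exact antisense match, and Chd2 had 574. Of the cohesin and CTCF genes 1 of 15 had a site, in the last coding segment of the cohesin loader Nipbl, at a signal of 73.5.

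The lists of neuronal and cytoskeletal genes all had intervals that held the density of all genes, 5.56 per 100 kb, in the list of both replicates. Over all genes 7.71% had a site, at a median of 1118 bp of eligible coding sequence. The genes of these lists were longer, with list medians of 1332.5 to 7215 bp. Cadherins had a site in 13 of 50 genes and 7.47 sites per 100 kb, led by Cdh22 with 731. Without replicate 1 the cadherin density was 8.96 per 100 kb (interval 5.31 to 14.2), above the density of all genes. Kinesins had one in 8 of 41 genes and 8.42 per 100 kb, and the spectrin, ankyrin and plakin genes in 6 of 14 and 7.68 per 100 kb (4.19 without replicate 2 and 4.89 without replicate 1), with Sptbn4 at 663 and Ank2 at 662. Voltage-gated channel genes had a site in 9 of 61 (5.70 per 100 kb). Among them were Cacna1a, the pore subunit of P/Q-type calcium channels, at 597, and Kcna1 at 430. Glutamate receptor genes had one in 4 of 25 (5.90 per 100 kb), with Grid1 at 213, Grm4 at 210 and Grin2c at 193. None of the 4 sites of this list had a match. GABA receptor genes had 4 sites in 4 of 18 genes (15.2 per 100 kb, interval 4.13 to 38.8, and 7.58 without replicate 2), with 590 in Gabrp and 85.6 in Gabrg3. Synaptic adhesion genes had one in 6 of 49 (3.74 per 100 kb), with Ptprs, a receptor tyrosine phosphatase, at 797. Axon guidance genes had one in 11 of 64 (6.77 per 100 kb), led by the semaphorins Sema4f (668), Sema4a (618) and Sema3f (605). Myosin and dynein heavy chain genes had one in 19 of 56 (5.54 per 100 kb), with the axonemal dynein Dnah1 at 753 on an exact match.

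The remaining lists were of matrix, signalling and developmental genes. Notch, LRP and EGF-repeat genes had a site in 7 of 27 (7.32 per 100 kb), with the receptors Notch3 at 811 and Lrp1 at 591. Laminin, fibrillin and other matrix genes had one in 7 of 30 (4.57 per 100 kb), with Lama4 at 539, and collagens in 6 of 42 (3.25 per 100 kb), with Col16a1 at 677. Leaving out either replicate gave the collagens 1.62 per 100 kb (interval 0.335 to 4.75), below the density of all genes. Clustered protocadherins had one in 4 of 56 (4.32 per 100 kb), at signals of 183 in Pcdhgc3, 98.6 in Pcdhb10 and 68.1 in Pcdhb14. The ryanodine and IP3 receptor genes had one in 3 of 6. They held 4 sites in all (5.99 per 100 kb), and 2 when either replicate was left out. The strongest were Ryr1 at 443, Itpr3 at 339 and Ryr3 at 137. Hox genes offered only 13 kb of coding bases over 1 kb from a TSS and held 2 sites, in Hoxc10 (451) and Hoxd10 (140).

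At the limits of the rule, the sites kept by the rule with the shortest distance were in Erh, 1002 bp from a TSS with a signal of 447, and Hcrt, the hypocretin gene, 1007 bp away with 706. Just left out were coding summits in Tmem229a at 1000 bp (247) and Rps15 at 997 bp (96.4). At the limit of reproducibility, an IDR of 0.05, the last sites inside were in Krt7 with a signal of 55.2 and Rpl15 with 41.4, and the first outside were in Tmed10 with 45.2 and Trappc11 with 40.2. The ranked list held 3492 coding peaks in all, of which 45.8% were past this limit, against 42.8% of intron peaks. Of the 1598 coding exon sites, 1252 (78.3%) were in both single-replicate lists and 186 in neither. The share in both was 73.2% among intron sites.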

How the data were processed

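CTCF ChIP-seq peaks came from 4 libraries in 2 replicates, and the 2 libraries of a replicate share 1 alignment. Per the labels the build is mm10. For the aligner, the peak caller, the control and all versions: not given in the sources used here. Peaks were deposited by the authors as narrowPeak lists thresholded by IDR (between replicates, per replicate and on pooled reads) and ranked lists. The deposited peak signal has no stated scale, the deposited IDR score runs to 1000 (540 at an IDR of 0.05), and the deposited q-value and IDR are given as −log10. The signal was used to describe and rank peaks within a list.

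Each summit was called a promoter summit up to 1 kb from a TSS, and otherwise coding exon, 5′ UTR, 3′ UTR, other exon, intron or intergenic, in this order of priority, with GENCODE M21 basic on GRCm38, the assembly mm10 names. Sequences are from RefSeq's GRCm38.p6, matched by coordinate, soft-masking included. The 12-base core motif was searched on both strands with at most 1 mismatch. Per gene the transcript with the longest coding sequence gave segment and frame. Named were the 10 strongest sites, the 3 highest and 3 lowest replicate ratios, the 5 genes with most sites, the 3 strongest sites of each gene list, the 2 on either side of each limit, and the strongest exact match per strand and frame; 1 site that this names is not reported here. The members and lists were chosen with earlier results of these data known, and the densities by GC and CpG content were added after seeing the data. Shares have exact 95% (Clopper-Pearson) intervals. Scripts were tested on simulated data. Python 3.11.15, numpy 2.4.6, pandas 2.3.3 and scipy 1.17.1 were used. No sequence of chromosome 18 is shown.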

Additional observations from a re-analysis of the deposited data

How the results depend on the processing

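No paired analysis was possible because the tests compare classes of sites within 1 list and no file gives values per library. The motif share of coding exon sites was below that of introns, 3′ UTRs and intergenic sequence with an adjusted p under 0.05 in each alternative run, with 1 exception: for exact matches the difference to introns was -0.931 percentage points (p = 0.223). The occupied share was lower in coding exons in each alternative except for matches with a CpG, where Fisher's exact test gave a difference of -0.0743 points and p = 1. With 1 replicate's list the difference in motif share to introns was -17.1 points whichever replicate was left out, that to 3′ UTRs -12.3 and -11.6, and that to intergenic sequence -18.3 and -18.1. The occupied difference was -8.23 to -8.14 points, against -10.7 from both. The share of summits in coding exons was 2.10% over 500 bp from a TSS, 1.57% over 2 kb, 1.46% with all annotated transcripts and 5.14% when any base of the peak counted, and 1.83 to 1.89% with 1 replicate's list. The median signal was 211 at an IDR of 0.01 or less, 177 over 500 bp from a TSS and 195 with overlapping peaks reduced to the strongest, and its excess over introns was 30.1, 26.6 and 38.9 in these settings. Matches beginning at codon position 1 were 30.1% of occupied ones, and 23.0% of occupied exact ones. Long segments held 28.2% of sites at a limit of 500 bp and 6.61% at 2 kb. Density over all genes was 4.77 to 5.08 per 100 kb with 1 replicate's list. For single gene lists 8 of 57 alternative densities moved by over 1.5 times, all without 1 replicate: collagens, spectrins, ankyrins and plakins, and ryanodine and IP3 receptors without either, GABA receptors without replicate 2 and olfactory receptors without replicate 1. The cause was not tested. The settings without repeats, by CpG and with all transcripts for the motif share, and those for position and replicate ratio, were chosen after seeing the data. Depth is unknown, so binding at a coding match without a summit was not detectable at this depth and is not shown to be absent.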
